A study of Homo sapiens with 6 samples.

Results

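Laminins are secreted glycoproteins of the basement membrane, the sheet of matrix on which epithelial cells rest. Each is a trimer of an alpha, a beta and a gamma chain that assembles inside the cell before secretion, so the chains a cell transcribes limit which trimers it can make. The alpha chain of LAMA5 pairs with the beta chain of LAMB1 or LAMB2 and the gamma chain of LAMC1 in the laminins of most simple epithelia, the colon included, whereas the beta chain of LAMB3 belongs to the laminin that is anchored by hemidesmosomes, together with the chain of LAMA3. Collagen XVII, the product of COL17A1, is a transmembrane collagen of the hemidesmosome that binds this laminin.

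The genes described were chosen by name as 7 basement membrane genes: LAMA3, LAMA5, LAMB1, LAMB2, LAMB3, LAMC1 and COL17A1. Of these, 5 had at least 1 probe set with a single gene symbol in the platform's gene table, and all 5 passed the level required for testing, out of 19775 named genes and 12317 tested. They are LAMA5, LAMB1, LAMB2, LAMB3 and LAMC1, with 7 probe sets among 54675. No probe set is named LAMA3 or COL17A1 in that table, so these genes were not analysed here, and nothing is said of collagen XVII. A further probe set that carries the symbols of both LAMA5 and its antisense gene LAMA5-AS1 was set aside. The genes, and the lists used below, were chosen with earlier results of these data known. Their counts beside shares of all tested genes are therefore descriptive.

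All samples came from HCA-7, an established line of human colorectal cancer cells, cultured in gels of type 1 collagen. The spiky group was clone SC1, whose colonies send out protrusions, and the cystic group was clone CC3, whose colonies form hollow cysts. Each clone was sampled at culture day 5, 10 and 15, and RNA of the cell-containing layer was measured on Affymetrix U133 Plus 2.0 arrays, 1 for each clone at each day, giving 3 spiky and 3 cystic arrays. With 1 clone per colony shape, shape and clone cannot be told apart. Nothing in the labels makes the days of a clone separate cultures. No clone was measured more than once at any day, so there was no scatter of replicates to use. The error behind the clone and day p-values is how far the clone difference varied between the days, pooled in part across genes. Part of that variation may be technical, and part may be a real change of the clone difference with day.

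Values are log2 signals as deposited, with array medians between 5.18 and 5.34. Of 12 colonic epithelial marker genes 6 had a mean of at least log2 5, namely EPCAM, CDH1, KRT8, KRT18, KRT19 and VIL1, while the intestinal markers KRT20, CDX1, CDX2, CDH17, LGALS4 and GPA33 lay under it. The means over the fibroblast marker list were 4.01 to 4.19 on the spiky and 3.98 to 4.28 on the cystic arrays, with 2 of 10 genes at log2 5 or more, and those over the endothelial list were 4.52 to 4.82 on the spiky and 4.36 to 4.71 on the cystic arrays, with 2 of 7. Among the basal squamous markers only KRT15 of 5 named genes reached that level, and KRT5 and KRT14 did not. A gene was called when limma's Benjamini-Hochberg adjusted p was under 0.05 across all 12317 tested genes.

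**Figure D1:**
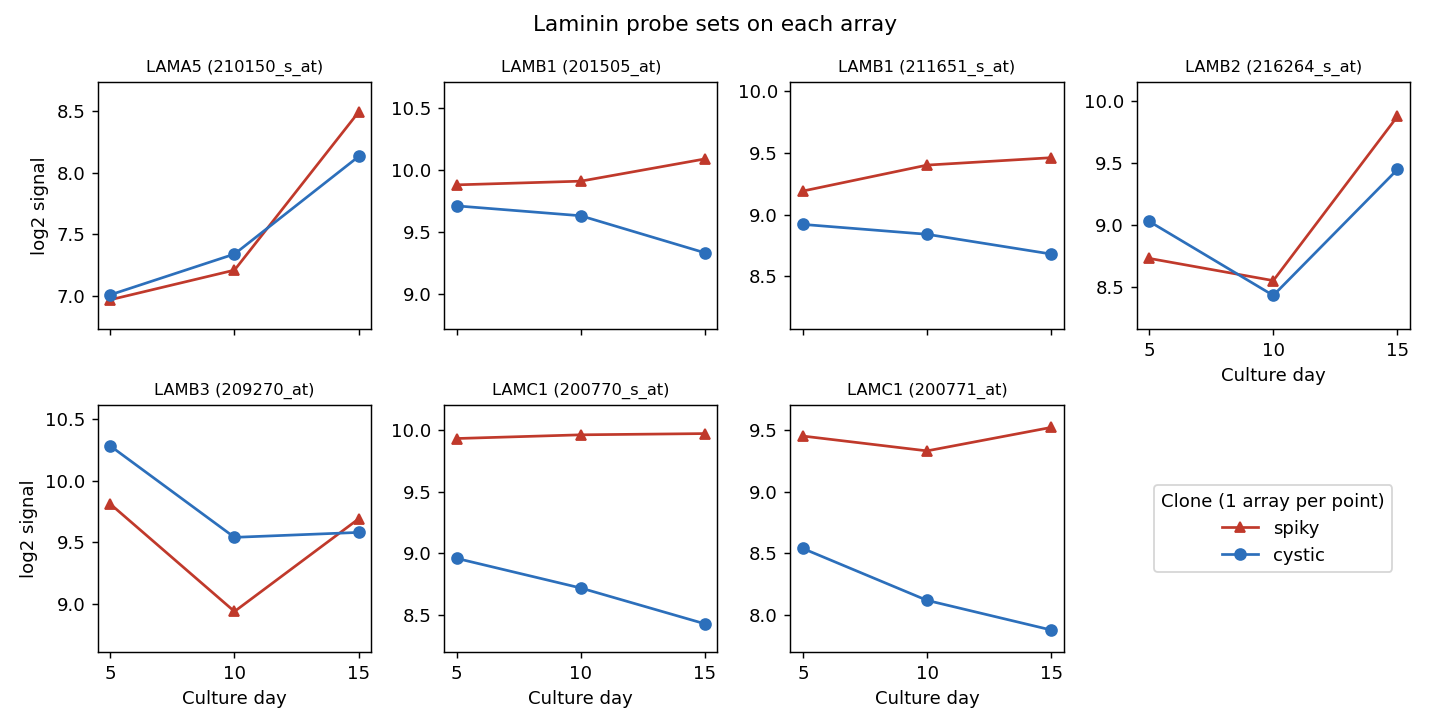
The log2 signal (vertical axis) of each of the 7 laminin probe sets is plotted against culture day (horizontal axis) for the spiky clone (triangles) and the cystic clone (circles), with 1 array per point and the same span of log2 units in every panel. Both LAMC1 probe sets lie higher on every spiky array than on any cystic array, whereas LAMA5 and LAMB2 have their highest values at day 15 in both clones.

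The comparison of the spiky with the cystic clone asked which laminin chains differ with colony shape. LAMC1, the gamma chain shared by most laminins and the chain through which laminin binds nidogen, was the 1 member called, 2.38-fold higher in the spiky clone. LAMB1, its usual beta partner, was higher on all 3 spiky arrays than on any cystic array but did not pass at the gene level. LAMB3 pointed lower, and LAMA5 and LAMB2 lay within the spread of the arrays. The 1 of 5 members called compares with 11.4% of all tested genes called in either direction and 3.65% called higher (7.74% were called lower).

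The brighter LAMC1 probe set read 9.93, 9.96 and 9.97 on the spiky arrays of day 5, 10 and 15, against 8.96, 8.72 and 8.43 on the cystic arrays. The spiky values spanned almost nothing over the culture while each later cystic value was lower than the one before, and the clones did not overlap. The means were 9.95 ± 0.02 in the spiky and 8.70 ± 0.27 in the cystic clone (log2, SD, n = 3 each). The fitted difference was 1.25 (SE 0.13, 95% interval 0.97 to 1.54, adjusted p = 0.000674), and it ranked 190 by size among the 12317 tested genes. The second LAMC1 probe set read 9.45, 9.33 and 9.52 in the spiky clone, against 8.54, 8.12 and 7.88 in the cystic clone. Its difference was also 1.25 (SE 0.14, adjusted p = 0.000607 with each of 23948 probe sets tested on its own).

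LAMB1 has 2 probe sets as well. The brighter read 9.88, 9.91 and 10.09 on the spiky arrays of day 5, 10 and 15, against 9.71, 9.63 and 9.33 on the cystic arrays. The lowest spiky array thus lay above the highest cystic one, an order that all 3 spiky arrays showed for 5.5% of tested genes. The fitted difference was 0.40 (SE 0.12, 95% interval 0.12 to 0.68) with adjusted p = 0.073. The dimmer probe set read 9.19, 9.40 and 9.46 in the spiky clone and 8.92, 8.84 and 8.68 in the cystic clone, and with probe sets tested one by one it was called at 0.53 (SE 0.12, adjusted p = 0.0203). The call of LAMB1 therefore depends on the probe set: with the mean of both it was 0.47 with adjusted p = 0.0418.

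The other members did not pass between the clones. LAMB3 differed by -0.32 (SE 0.14, 95% interval -0.63 to -0.01, adjusted p = 0.193), and its groups overlapped because the day 15 arrays read 9.69 in the spiky and 9.58 in the cystic clone. Without the day 15 pair its difference was -0.53, with adjusted p = 0.00203 when the cystic array of that day was left out. Without the cystic array of day 5 it was -0.24 (adjusted p = 0.592), and without that of day 10 it was -0.18 (adjusted p = 0.68). The call of LAMB3 thus appeared only with day 15 removed. LAMA5 differed by 0.07 (95% interval -0.29 to 0.42) and LAMB2 by 0.08 (95% interval -0.25 to 0.41), with adjusted p = 0.847 and 0.803. Intervals of this width do not show that the clones were alike.

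Tested genes beside the members on their chromosomes had medians close to 0 for spiky minus cystic. The 20 nearest tested genes around LAMC1 on chromosome 1 had a median difference of 0.01, with 0 called higher and 1 lower. Around LAMB1 on chromosome 7 the median over 20 neighbours was 0.02, with 1 called higher and 1 lower. The corresponding medians were 0.07 around LAMB3, 0.00 around LAMB2 on chromosome 3 and -0.05 around LAMA5 on chromosome 20.

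**Figure D2:**
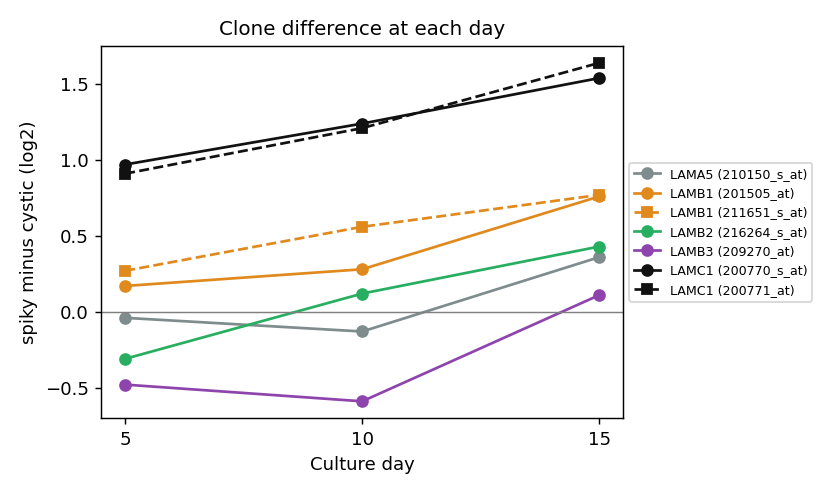
The difference spiky minus cystic (log2, vertical axis) is plotted at each culture day (horizontal axis) for the 7 laminin probe sets, 1 array pair per point, with dashed lines and squares for the second probe set of LAMB1 and LAMC1. All 7 differences are larger at day 15 than at day 5, and the LAMC1 difference runs through 0.97, 1.24 and 1.54 for its brighter probe set.

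The difference spiky minus cystic was more positive at day 15 than at day 5 in all 7 probe sets, but a difference in slope was not called for any member. For LAMC1 it was 0.97, 1.24 and 1.54 at day 5, 10 and 15, and for LAMB1 0.17, 0.28 and 0.76. In LAMC1 the spiky signal differed by 0.03 between day 15 and day 5 while the cystic signal differed by -0.54. In LAMB1 the spiky signal differed by 0.21 and the cystic signal by -0.38. For LAMB3 the day differences were -0.48, -0.59 and 0.11, for LAMB2 -0.31, 0.12 and 0.43, and for LAMA5 -0.04, -0.13 and 0.36. The fitted slope differences, spiky minus cystic per 10 days, were 0.57 for LAMC1 (SE 0.32), 0.59 for LAMB1 (SE 0.31), 0.59 for LAMB3 (SE 0.62), 0.73 for LAMB2 (SE 0.74) and 0.40 for LAMA5 (SE 0.53), each with adjusted p = 0.999.

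Limma called 0 of 12317 genes for the slope difference (0% called), so this count says little about the members. At an unadjusted p under 0.05 there were 309 genes (2.51%), and 0 of the 5 members among them. On simulated data the test recovered 1.49% of genes changed by log2 1 and 24.2% of those changed by log2 2 per 10 days. The median slope difference was 0.59 over the 5 members and -0.02 over all tested genes.

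The promoters of LAMC1 and LAMB1 are shown because these chains were the ones higher on all spiky arrays. Both windows, taken from RefSeq on build GRCh38.p14, run from 250 bases before to 50 after the start of the gene. Capitals mark a match on either strand to GGGCGG (the Sp1 box), TGANTCA (AP-1), GGAATG (TEAD), ACGTG (the core of the HIF site) or TATAAA (the TATA box), where N is any base and overlapping matches run together.
LAMC1 (chr1:183023170-183023469, plus strand): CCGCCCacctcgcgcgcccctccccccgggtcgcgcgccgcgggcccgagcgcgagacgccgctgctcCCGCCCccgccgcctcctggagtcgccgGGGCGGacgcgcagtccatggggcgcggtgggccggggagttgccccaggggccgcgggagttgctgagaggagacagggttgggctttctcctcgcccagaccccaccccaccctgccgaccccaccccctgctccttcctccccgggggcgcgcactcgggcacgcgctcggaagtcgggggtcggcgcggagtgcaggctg
LAMB1 (chr7:108003112-108003411, minus strand): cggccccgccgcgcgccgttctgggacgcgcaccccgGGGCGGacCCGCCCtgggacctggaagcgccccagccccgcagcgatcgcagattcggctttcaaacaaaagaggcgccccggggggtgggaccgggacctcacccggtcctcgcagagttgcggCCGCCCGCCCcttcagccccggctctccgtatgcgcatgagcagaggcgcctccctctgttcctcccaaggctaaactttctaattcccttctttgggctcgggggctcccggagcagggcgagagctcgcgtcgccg

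The LAMC1 window had a GC content of 79.0% and 3 matches to GGGCGG, and the LAMB1 window had 71.0% and 4, of which a pair overlaps. Neither held a match to the other 4 motifs. Of 35116 promoter windows of this length 45.0% hold GGGCGG, 7.71% TGANTCA, 14.0% GGAATG, 21.4% ACGTG and 11.5% TATAAA, and the median GC content is 58.7%. A match is a stretch of letters and was not tested for binding.

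The comparison of culture days asked which laminin chains change as the colonies mature. LAMA5, the alpha chain of the main epithelial laminins, and LAMB2, a beta chain that can replace that of LAMB1, rose by day 15, with higher day 15 values in both clones, and most of the rise came after day 10. LAMA5 was 2.50-fold and LAMB2 1.73-fold higher at day 15 than at day 5. LAMB1, LAMB3 and LAMC1 did not pass. The 2 of 5 members called compare with 32.3% of all tested genes called in either direction and 10.4% called higher (21.9% were called lower).

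LAMA5 read 6.97, 7.21 and 8.49 at day 5, 10 and 15 in the spiky clone and 7.01, 7.34 and 8.13 in the cystic clone. Both day 15 arrays lay above all others, and the clones were within 0.13 of each other at the earlier days. The difference of day 15 from day 5 was 1.32 (SE 0.19, 95% interval 0.88 to 1.75, adjusted p = 0.00171), made up of 1.52 in the spiky and 1.12 in the cystic clone. For day 15 against day 10 it was 1.04 (SE 0.19, adjusted p = 0.00677), and for day 10 against day 5 it was 0.28 (adjusted p = 0.537). Without the spiky day 10 array the later step was 0.89 with adjusted p = 0.0705.

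The antisense gene LAMA5-AS1, which overlaps LAMA5, has a probe set of its own that read 6.91 in the spiky and 7.14 in the cystic clone at day 15, against 7.08 and 7.18 at day 5. The probe set shared by both symbols lay between 4.14 and 5.13 on the 6 arrays, with means of 4.63 in the spiky and 4.81 in the cystic clone. Neither moved as the LAMA5 probe set did. LAMA5 thus rests on 1 probe set.

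LAMB2 read 8.73, 8.55 and 9.88 at these days in the spiky clone and 9.03, 8.43 and 9.45 in the cystic clone. Both clones were lowest at day 10 and highest at day 15. The difference of day 15 from day 10 was 1.17 (SE 0.18, 95% interval 0.77 to 1.58, adjusted p = 0.00317), or 2.25-fold, with 1.33 in the spiky and 1.02 in the cystic clone. Against day 5 it was 0.79 (SE 0.18, adjusted p = 0.01), with 1.15 in the spiky and 0.42 in the cystic clone. This value was 0.50 with adjusted p = 0.168 without the spiky day 5 array, and the day 10 value differed from day 5 by -0.38 (adjusted p = 0.389).

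The probe set of LAMB2 is of a type, ending in _s_at, that can detect several transcripts. So are that of LAMA5, the brighter one of LAMC1 and the dimmer one of LAMB1. The pseudogene LAMB2P1, related to LAMB2, has its own probe set. It read 5.30 in the spiky and 5.49 in the cystic clone at day 15, against 5.16 and 4.78 at day 5. Signal from such close copies cannot be fully separated on an array.

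LAMB3 followed a different course. At day 5, 10 and 15 it read 9.81, 8.94 and 9.69 in the spiky clone and 10.28, 9.54 and 9.58 in the cystic clone. Day 5 was the highest day in both clones, but the spiky clone was lowest at day 10 and higher again at day 15, while the cystic clone read within 0.04 at the later days. The fitted difference of day 10 from day 5 was -0.80 (SE 0.17, 95% interval -1.19 to -0.42), and it ranked 168 by size among the 12317 tested genes, with adjusted p = 0.157. For this step limma called 0 of 5 members and 0.0162% of all genes, and at an unadjusted p under 0.05 there were 1658 genes (13.5%), LAMB3 being the 1 member among them. With the cystic day 15 array left out the difference was -0.80 with adjusted p = 0.000967, and with the spiky one left out it was -0.80 with adjusted p = 0.00103. With an array of day 5 or 10 left out it was not called. It was -0.69 and -1.01 without the cystic array of day 5 and 10, and -0.92 and -0.60 without the spiky one. The difference of day 15 from day 5 was -0.41 (SE 0.17, adjusted p = 0.096), and that of day 15 from day 10 was 0.40 (SE 0.17, adjusted p = 0.126).

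For LAMC1 and LAMB1 the days differed by less. LAMC1 at day 15 differed from day 5 by -0.25 (SE 0.15, adjusted p = 0.248), the mean of a spiky change of 0.03 and a cystic change of -0.54. LAMB1 differed by -0.09 (SE 0.15, adjusted p = 0.71). Between day 15 and day 10 limma called 2 of 5 members, LAMA5 and LAMB2, both higher, against 22.6% of all genes called and 8.66% called higher.

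**Figure D3:**
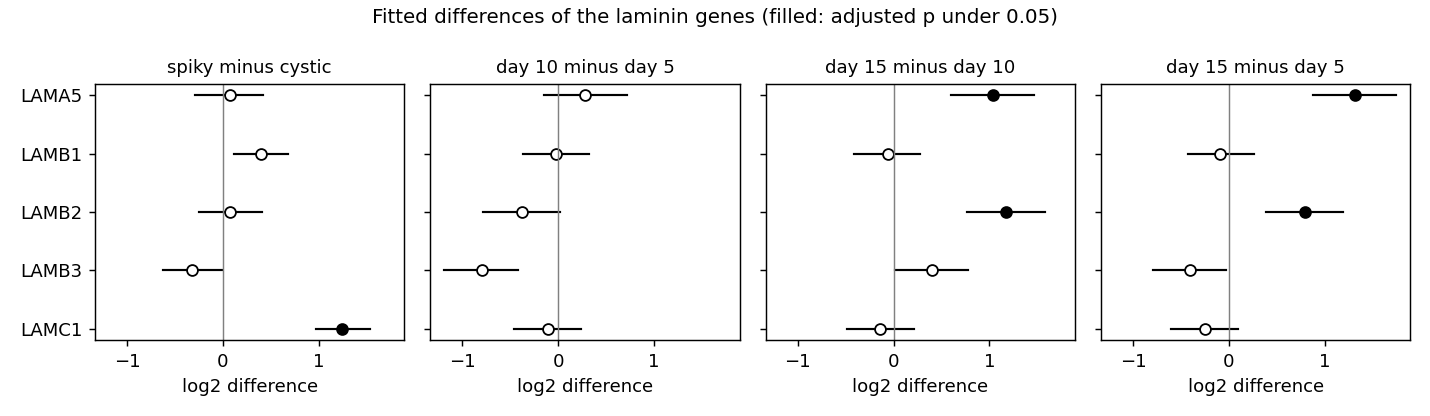
Fitted log2 differences (horizontal axis) of the 5 laminin genes are given for 4 comparisons, with lines for the 95% interval and filled points where the adjusted p was under 0.05. LAMC1 is filled for spiky minus cystic at 1.25, and LAMA5 and LAMB2 are filled for both comparisons that end at day 15.

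The promoters of LAMA5 and LAMB2 are shown as those of the chains that rose at day 15, and that of LAMB3 as the 1 measured member whose window holds an AP-1 match. Windows and capitals are as above.
LAMA5 (chr20:62367263-62367562, minus strand): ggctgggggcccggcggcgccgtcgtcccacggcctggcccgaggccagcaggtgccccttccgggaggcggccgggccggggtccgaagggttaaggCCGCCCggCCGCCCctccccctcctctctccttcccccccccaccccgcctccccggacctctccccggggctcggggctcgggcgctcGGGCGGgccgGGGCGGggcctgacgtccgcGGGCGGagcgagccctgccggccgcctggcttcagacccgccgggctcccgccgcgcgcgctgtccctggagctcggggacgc
LAMB2 (chr3:49133001-49133300, minus strand): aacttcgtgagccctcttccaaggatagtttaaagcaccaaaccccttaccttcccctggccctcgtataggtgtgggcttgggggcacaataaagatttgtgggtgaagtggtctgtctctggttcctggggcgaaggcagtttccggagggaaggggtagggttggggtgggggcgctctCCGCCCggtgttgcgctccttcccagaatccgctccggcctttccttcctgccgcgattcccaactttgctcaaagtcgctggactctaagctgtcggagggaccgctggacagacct
LAMB3 (chr1:209651325-209651624, minus strand): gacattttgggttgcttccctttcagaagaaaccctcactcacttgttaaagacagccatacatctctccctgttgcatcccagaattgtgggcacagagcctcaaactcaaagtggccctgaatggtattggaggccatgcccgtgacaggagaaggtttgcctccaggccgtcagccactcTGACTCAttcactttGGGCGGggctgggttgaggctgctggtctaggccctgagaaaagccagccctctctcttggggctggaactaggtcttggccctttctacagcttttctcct

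The LAMA5 window had a GC content of 82.7% and 5 matches to GGGCGG, against 58.7% and 1 match in that of LAMB2. The LAMB3 window, at 53.7% GC, held 1 match to GGGCGG and 1 to TGANTCA, which starts 67 bases before that start of the gene and is found in 7.71% of all windows. RefSeq lists 2 further LAMB3 starts, whose windows held 1 match to GGGCGG each and none to TGANTCA. The Sp1 box was present in the window of each of the 5 measured members, those that rose and those that did not, and 45.0% of all windows hold it.

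Among themselves the members fell into 2 patterns and 1 gene apart, described over 6 arrays that share clone and day. LAMB1 and LAMC1 had a Pearson r of 0.92 and LAMA5 and LAMB2 one of 0.85. LAMB3 had r between -0.28 and 0.30 with the other members. LAMA5 and LAMC1, which are chains of the same trimers, had r = -0.07.

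The tested genes with profiles most like those of the members were taken by the root mean square difference between profiles centred on their own means. For LAMC1 they were ERMP1 at 0.07, NMT2 at 0.09 and FOCAD at 0.11 log2 units, of which ERMP1 and FOCAD lie on chromosome 9. For LAMA5 they were ANKDD1A at 0.06, ASAP3 at 0.09 and EGLN1, an oxygen-sensing prolyl hydroxylase, at 0.09. For LAMB2 they were QSOX1, a secreted enzyme that forms disulfide bonds, and CYP4F11, both at 0.10, and the insulin receptor gene INSR at 0.11. For LAMB3 they were the calpain gene CAPN1 and the actin regulator BAIAP2, both at 0.08, and AACS at 0.10. Their Pearson r with the member lay between 0.97 and 1 over 6 arrays; LAMB1 varied too little for this search.

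Other laminin chains were mostly dim. Of 5 named genes 2 were tested, LAMA2 and LAMC3, and LAMA1, LAMA4 and LAMB4 had means under log2 5. LAMA2, the alpha chain best known from muscle, read 6.24, 6.02 and 6.39 on the spiky arrays of day 5, 10 and 15, against 7.26, 7.87 and 6.91 on the cystic arrays, and was 2.19-fold lower in the spiky clone (log2 difference -1.13, SE 0.24, adjusted p = 0.0175). LAMC3, a gamma chain known from nervous tissue, fell by 0.84 at day 15 against day 5 (SE 0.26, adjusted p = 0.0357), reading 5.22 in the spiky and 5.26 in the cystic clone at day 15, against 6.53 and 5.63 at day 5.

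The other components of the basement membrane rose at day 15 where they were called. Of 21 genes 7 were tested, and 14 had means under log2 5, among them those of all 6 type IV collagen chains (COL4A1 to COL4A6) and of both nidogens (NID1 and NID2), which link laminin to that collagen network. Between day 15 and day 5, 3 of the 7 rose and 0 fell, with a median of 0.44, against -0.11 over all tested genes and 10.4% of them called higher. COL7A1, the collagen of anchoring fibrils, rose by 1.14 (SE 0.24, adjusted p = 0.00705), agrin (AGRN), a proteoglycan that binds laminin, by 0.79 (SE 0.17, adjusted p = 0.00852) and COL18A1 by 0.90 (SE 0.25, adjusted p = 0.0256). Between day 15 and day 10 perlecan (HSPG2) and TINAGL1, named after their values were seen, rose as well, so that 5 of 7 rose and 0 fell, against 8.66% of all tested genes called higher and 14% called lower for that step. Between the clones 0 of 7 were called, with a median of -0.40 against -0.03 over all genes.

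Few receptors and hemidesmosome partners were called. Of 13 tested genes 1 rose and 2 fell between day 15 and day 5, against 10.4% of all tested genes called higher and 21.9% called lower, shares that these counts lie close to. The list median was 0.01, against -0.11 over all tested genes. BCAM, a receptor for the LAMA5 chain, rose by 1.13 (SE 0.31, adjusted p = 0.0235). It read 7.03 in the spiky and 6.77 in the cystic clone at day 15, against 5.18 and 6.35 at day 5. The syndecan gene SDC1 fell by 0.99 (SE 0.17, adjusted p = 0.00352) and LAD1, which encodes the basement membrane protein ladinin, fell by 0.64 (SE 0.20, adjusted p = 0.0398). ITGB4, the hemidesmosomal integrin chain, differed by 0.35 (adjusted p = 0.218) and rose by 0.80 at day 15 against day 10 (SE 0.20, adjusted p = 0.0215). Its partner ITGA6 differed by 0.01 between day 15 and day 5 (SE 0.07, adjusted p = 0.948). Between day 15 and day 10, 3 of the 13 rose and 0 fell, against 8.66% of all tested genes called higher: BCAM by 1.47 (adjusted p = 0.0118), ITGB4, and the laminin-binding integrin chain ITGA3 by 0.75 (adjusted p = 0.0242), the last named after its value was seen.

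Between the clones 1 of the 13 receptor and partner genes rose and 1 fell, close to the 3.65% and 7.74% of all tested genes called higher and lower. ITGA6, part of the laminin-binding integrins, read 12.03, 12.02 and 11.96 on the spiky arrays of day 5, 10 and 15, against 11.70, 11.79 and 11.79 on the cystic arrays, a difference of 0.24 (SE 0.06, adjusted p = 0.0328). The syndecan gene SDC4 fell by 0.65 on the log2 scale (SE 0.11, adjusted p = 0.00752). ITGB4 differed by -0.38 (SE 0.16, adjusted p = 0.188).

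**Figure D4:**
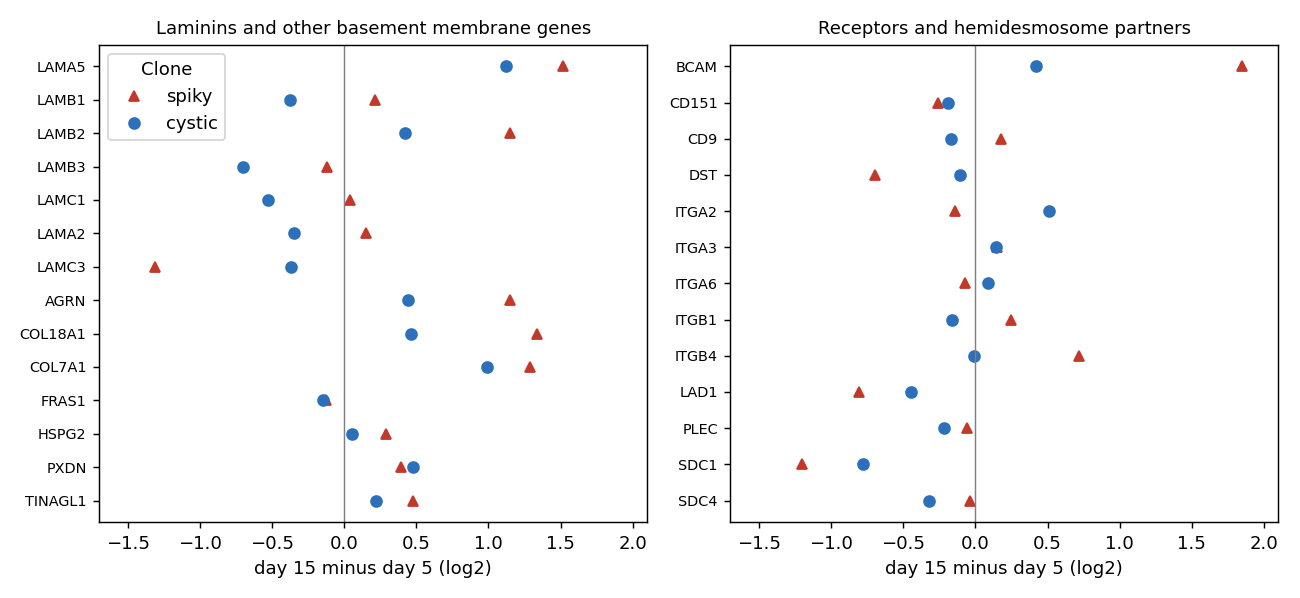
The difference day 15 minus day 5 (log2, horizontal axis) is plotted for each tested laminin and basement membrane gene (left) and each tested receptor or hemidesmosome partner gene (right), with triangles for the spiky and circles for the cystic clone, 1 array pair per point. LAMA5, LAMB2, AGRN, COL18A1 and COL7A1 lie to the right of 0 in both clones, and SDC1 and LAD1 to the left.

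As a sign of RNA quality, the ACTB value was higher at day 15 than at day 5 in both clones, while that of GAPDH was not. Single marker genes were called between these days, and of the 2 tested endothelial markers, CLDN5 and EGFL7, 0 were. The rest of the endothelial list had means under log2 5 and was not tested. Of these, VWF, PECAM1, CDH5 and KDR read higher at day 15 than at day 5 in both clones, and TEK lower. VWF read 5.13 in the spiky and 4.83 in the cystic clone at day 15, against 3.40 and 4.33 at day 5. For the ACTB control probe sets, signal at the 3' end minus that at the 5' end read 2.73, 2.74 and 3.10 in the spiky clone (day 5, 10 and 15) and 2.83, 3.18 and 3.28 in the cystic clone, whereas that of GAPDH was 0.49 and 0.63 at day 15, against 0.60 and 0.65 at day 5. Of the fibroblast markers, COL1A1 rose by 1.38 between day 15 and day 5 (adjusted p = 0.00203), while COL1A2, COL3A1, DCN, LUM and PDGFRB lay under log2 5 on all 6 arrays. Of the colonic epithelial markers KRT18 fell by 0.66 (adjusted p = 0.00106) and KRT8 by 0.48 (adjusted p = 0.0412) at day 15 against day 5, and VIL1 fell by 0.68 in the spiky against the cystic clone (adjusted p = 0.0411). For day 15 against day 10, the step in which most of the rise of LAMA5 and LAMB2 came, COL1A1 rose by 1.12 (adjusted p = 0.00704), the basal squamous marker KRT15 by 0.92 (adjusted p = 0.0339) and the colonic marker KRT19 by 0.47 (adjusted p = 0.0118), KRT15 and KRT19 being named after their values were seen. The part of RNA quality and of these marker genes in the rise of LAMA5 and LAMB2 was not tested. The ACTB value was also higher in the cystic than in the spiky clone at each day. So was that of GAPDH, at 0.65, 0.79 and 0.63 in the cystic against 0.60, 0.63 and 0.49 in the spiky clone. The part of RNA quality in the clone differences of LAMC1 and LAMB1 was not tested either. A change in the share of cells that express a chain and a change in RNA per cell cannot be told apart in such bulk samples.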

How the data were processed

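Total RNA of 6 samples, 2 clones at 3 days each, was labelled as biotinylated cRNA and hybridised to Affymetrix U133 Plus 2.0 arrays, per the labels' protocols. The authors deposited log2 values made with RMA, as the submitters' processing notes state, with version and options not given in the sources used here. RMA makes the arrays' distributions alike, so changes are relative to the other genes. There is no read depth on an array; precision is limited by the number of arrays. There were 0 missing values and 0 other columns of per-sample values.

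Of 54675 probe sets 41097 had 1 gene symbol in the platform's gene table, 1801 several and 11777 none. Symbols were updated by gene ID to the RefSeq table of assembly GRCh38.p14, which 41043 matched, and that table served only for names, chromosomes and gene order. For each gene the brightest probe set with a single symbol was used, and tests covered genes whose mean was log2 5 or more.

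The models, fitted with limma 3.58.1 in R 4.3.3, used all 6 arrays and held clone and day (as a factor), with variances moderated along the intensity trend, which left 2 residual degrees of freedom. Day and clone each served as the block of the other, since both are factors of the design. The slope difference came from a model with day as a number. Tests were two-sided. Gene lists were described by counts and medians, with no test of a list. All members were named, and from each companion list up to 3 called genes per direction with the smallest p for spiky against cystic and day 15 against day 5, plus ITGA6 and ITGB4. The members and lists were chosen with earlier results of these data known. The likeness search used members with an SD of at least 0.3 over the arrays. On simulated data 200 of 12317 genes were shifted by log2 0.5, 1 or 2. The fit for spiky against cystic found 17.9%, 74.6% and 100% of these (7.91% of calls were false). That for day 15 against day 5 found 8.96%, 50.7% and 97.0% (4.59% false). For day 15 against day 10 the shares were 10.4%, 49.3% and 100% (10.2% false). For day 10 against day 5 they were 2.99%, 46.3% and 100% (7.48% false). Figures were drawn with matplotlib 3.10.9. The alternatives changed the dim-gene filter, the choice of probe set, the unit tested, the scaling, the variance prior or the block, or left out an array.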

Additional observations from a re-analysis of the deposited data

How the results depend on the processing

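LAMC1 for spiky against cystic and LAMA5 for day 15 against day 5 kept their direction and call in all 16 alternatives, at 1.10 to 1.39 and 1.10 to 1.54, and LAMB2 for day 15 against day 10 did so at 0.91 to 1.43. Leaving out either array of a day removes that day from the clone difference.

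Members called went, for spiky against cystic, from 1 to 2 with probe sets averaged and with arrays centred on their median (LAMB1 at 0.46, adjusted p = 0.0488), and were 1 to 2 with an array left out. For day 15 against day 5 they were 1 without clone as the replicate block (LAMB2 at 0.79, adjusted p = 0.055) and 1 to 4 with an array left out, 4 being without the spiky day 15 array (LAMB3 at -0.73, LAMC1 at -0.47). For day 15 against day 10 they were 1 without the replicate block (LAMA5 at 1.04, adjusted p = 0.0516) and 1 to 3 with an array left out; for day 10 against day 5 they were 0 to 1. LAMB3 for day 15 against day 5 was -0.49 with adjusted p = 0.0456 with centred arrays.

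Genes called for spiky against cystic were 1403, but 72 without the replicate block (culture day), 691 without the intensity trend, 2462 over probe sets and 507 to 2157 with an array left out. For day 15 against day 5 they were 3982, but 1457 without the replicate block, 7122 over probe sets and 761 to 4318 with an array left out. For day 15 against day 10 they were 2786, but 337, 1444, 4677 and 1019 to 3577 in the order block, trend, probe sets and array left out. For day 10 against day 5 they were 2, but 0 with no filter, without the trend or without the block, 19 at a mean of at least 6, 1 with probe sets averaged, 14 without _x_at and _s_at probe sets, 65 over probe sets, 11 with the robust prior and 0 to 469 with an array left out. For the slope difference they were 0 to 33 with an array left out. The cause of these changes was not tested. The share of lower calls for spiky against cystic was 67.9%, and 55.5% with centred arrays; for day 15 against day 5 it was 67.7%, 76.4% with centred arrays and 55.1% with cyclic loess; for day 15 against day 10 it was 61.7%, 73.0% with centred arrays and 50.5% with cyclic loess.

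Signs that turned were those of differences that had not passed. LAMB1 was 0.06, 0.01 and 0.05 with cyclic loess for day 15 against day 5, day 10 against day 5 and day 15 against day 10, and 0.02 with probe sets averaged for day 10 against day 5. With an array left out it ran from -0.35 to 0.18, -0.20 to 0.15 and -0.33 to 0.20 in that order, and LAMC1 from -0.32 to 0.10 for day 10 against day 5 and -0.36 to 0.08 for day 15 against day 10. Spiky against cystic ran from -0.08 to 0.16 for LAMA5 and -0.09 to 0.27 for LAMB2, and the slope difference from -0.64 to 1.44 for LAMA5, -0.88 to 2.35 for LAMB2 and -1.02 to 2.20 for LAMB3.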

Other observations

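A list of 11 genes held proteases that release or trim laminins and transmembrane collagens, with their activators and an inhibitor, of which 8 passed the level required for testing. Between day 15 and day 5, 3 rose and 0 fell, against 10.4% of all tested genes called higher. FURIN, a convertase that activates many secreted and membrane proteases, rose by 0.93 (SE 0.19, limma adjusted p = 0.0067), and the shedding proteases ADAM10 and ADAM17 rose by 0.51 (adjusted p = 0.0134) and 0.56 (adjusted p = 0.0183). FURIN read 8.30 in the spiky and 9.24 in the cystic clone at day 15, against 7.66 and 8.03 at day 5. Between the clones FURIN was the 1 gene of the 8 called, at -0.74 (SE 0.16, adjusted p = 0.0163), and lower on the spiky than on the cystic array of each day. MMP2, MMP9 and TLL1 had means under log2 5.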
